A study of Homo sapiens with 8 samples.

Results

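The 36 genes of glucose breakdown and oxygen sensing described here were followed through RNA-seq libraries of the human cell line AML-OCI3, which came from an acute myeloid leukaemia. They were the rows whose symbol equalled a name on a fixed list: 3 transporters, 16 glycolytic enzymes, 3 regulators of glycolysis, 9 other genes known as targets of hypoxia-inducible factor (HIF), and 5 genes for HIF1A and its oxygen-sensing hydroxylases. All 36 were among the 24077 genes present at both times, and 34 were among the 15248 genes that passed the filter on low counts. The cells were kept in RPMI with serum and received DMSO, the vehicle, or JIB-04 at 40 nM, and were collected after 24 h or after 48 h. Each of the 4 combinations had 2 libraries. JIB-04 is a small-molecule inhibitor of Jumonji histone demethylases, and the study concerns whether it sensitises leukaemia cells to venetoclax, a BCL2 inhibitor. No library here received venetoclax, and no library was labelled as grown at low oxygen. The labels do not say whether the replicates came from separate cultures, so p-values measure only the spread between these libraries, which may be technical. One cell line was used.

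Glycolysis turns glucose into pyruvate and, through lactate dehydrogenase, into lactate, which leaves the cell on a monocarboxylate transporter. Many of its genes are switched on by HIF, a transcription factor whose alpha subunit is marked for destruction in oxygen by the EGLN prolyl hydroxylases and held back from its co-activators by the asparaginyl hydroxylase HIF1AN. These hydroxylases belong to the same enzyme class as the Jumonji demethylases, since both need iron and 2-oxoglutarate.

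Library totals lay between 18783093 and 22193377 counts. Scaled to the library total (CPM), 1 count stood for 0.0451 to 0.0532 CPM. On the scale that also divides by transcript length (TPM), all 10 myeloid markers reached 1 TPM in some library and 8 did so in every library. MPO, at 0.77 to 1.39 TPM, and ITGAM, at 0.63 to 1.18 TPM, were the low ones. The myeloid markers summed to 874 to 1104 TPM per library, while the B-cell and fibroblast markers listed in both tables summed to at most 0.56 and 0.06 TPM. None of the erythroid, T-cell or epithelial markers was listed in both tables. The group means of the myeloid sum were 1054 TPM in DMSO and 1082 TPM with JIB-04 at 24 h, and 893 and 1037 TPM at 48 h, and its part in the results below was not tested. In bulk RNA, fewer cells of a kind and less RNA per cell cannot be told apart.

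HIF binds a short core sequence, ACGTG or GCGTG, within hypoxia response elements. The 250 bases upstream of each RefSeq gene start were therefore searched for both motifs on both strands, with overlapping matches counted separately. RefSeq promoters of GRCh38.p14 were matched for 32 of the 36 members. None was matched for SLC2A3, VEGFA, BNIP3L or NDRG1, so these were not searched. Of the 32, 20 (62.5%) held at least 1 of the motifs, beside 43.2% of 34943 promoters of the same length. ACGTG was found in 14 of the 32 (43.8%), beside 18.5% of all promoters, and GCGTG in 10 of the 32 (31.3%), beside 32.2%. The promoters of BNIP3 and LDHA held 6 and 5 matches, ALDOC held 5 and BHLHE40 held 4, while none was found in the window of SLC2A1, SLC16A3, HK1, PFKM, PFKP, TPI1, PGAM1, PKM, PDK1, MXI1, HIF1AN or EGLN3. A match describes letters in the window and does not show that HIF binds there. The windows of ANKRD37, HK2 and PGK1 are shown because these members had the smallest p-values in the mean effect of JIB-04 among the members whose window held a match. SLC2A3 and VEGFA had smaller p-values but no window to search. Capitals mark ACGTG or GCGTG, or the same motif read from the other strand (CACGT or CACGC). The positions are chr4:185396591-185396840, chr2:74833877-74834126 and chrX:78103998-78104247 on GRCh38.p14, all on the plus strand. The RefSeq starts differ from the starts of the full gene spans used elsewhere here. The windows of ANKRD37 and PGK1 lie inside their gene spans, and that of HK2 overlaps the start of its span.
ANKRD37: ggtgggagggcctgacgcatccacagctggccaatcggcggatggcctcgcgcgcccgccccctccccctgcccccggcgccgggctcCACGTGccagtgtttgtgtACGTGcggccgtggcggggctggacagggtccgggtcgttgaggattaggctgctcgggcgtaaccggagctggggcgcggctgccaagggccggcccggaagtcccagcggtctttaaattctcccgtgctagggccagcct
HK2: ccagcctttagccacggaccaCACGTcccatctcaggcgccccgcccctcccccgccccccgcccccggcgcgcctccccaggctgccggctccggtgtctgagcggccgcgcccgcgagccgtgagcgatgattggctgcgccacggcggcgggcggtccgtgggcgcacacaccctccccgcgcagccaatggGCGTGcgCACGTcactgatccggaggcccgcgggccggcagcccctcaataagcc
PGK1: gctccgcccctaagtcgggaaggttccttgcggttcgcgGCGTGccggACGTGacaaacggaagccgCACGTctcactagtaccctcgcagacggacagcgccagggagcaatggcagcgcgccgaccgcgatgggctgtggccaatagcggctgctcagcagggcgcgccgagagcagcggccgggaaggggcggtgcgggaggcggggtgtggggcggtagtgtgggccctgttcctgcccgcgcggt
Each of the 3 windows held 3 matches. In ANKRD37 all 3 were ACGTG, 2 of them the overlapping readings of CACGTG on the opposite strands, and in HK2 and in PGK1 2 were ACGTG and 1 was GCGTG. The windows had a GC content of 71.6%, 76.8% and 71.2%.

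The glycolytic enzymes were transcribed at high levels in every group. On the TPM scale, which is per length and so allows genes to be set side by side, GAPDH, the dehydrogenase that feeds the first ATP-yielding step, had the highest mean level over the 8 libraries, 3741 TPM (range 3177 to 4510.3). ENO1 (enolase) followed at 1564 TPM (1298 to 1778). LDHA, a lactate dehydrogenase subunit, lay at 971 TPM (845 to 1166) and ALDOA, an aldolase, at 902 TPM (775 to 1135). The ranges of LDHA and ALDOA overlapped, so their order was not separated from the spread between libraries. TPI1, PKM, PGK1 and PGAM1 had means of 838, 683, 636 and 424 TPM, and the hexose phosphate isomerase GPI 220.1 TPM. The 16 enzymes together took 1.15% of all TPM in DMSO and 1.05% with JIB-04 at 24 h, and 0.962% and 0.940% at 48 h, with single libraries between 0.865% and 1.21%. The summed level was 10904 and 12066 TPM in the DMSO libraries at 24 h and 11453 and 9594 TPM in the JIB-04 libraries. At 48 h it was 9892 and 9346 TPM in DMSO and 10158 and 8650 TPM with JIB-04. The JIB-04 and DMSO libraries overlapped at both times. Without GAPDH, ENO1, ALDOA and PKM they did not overlap. The other 12 enzymes summed to 3876 and 3842 TPM in DMSO against 3536 and 3297 TPM under JIB-04 after 24 h, and to 3249 and 3216 TPM against 3097 and 2832 TPM after 48 h, a difference that was not tested. The genes left out were not the most abundant ones, since LDHA and TPI1, which were kept, had higher means than PKM. How far the separation rests on this choice was not tested.

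**Figure D1:**
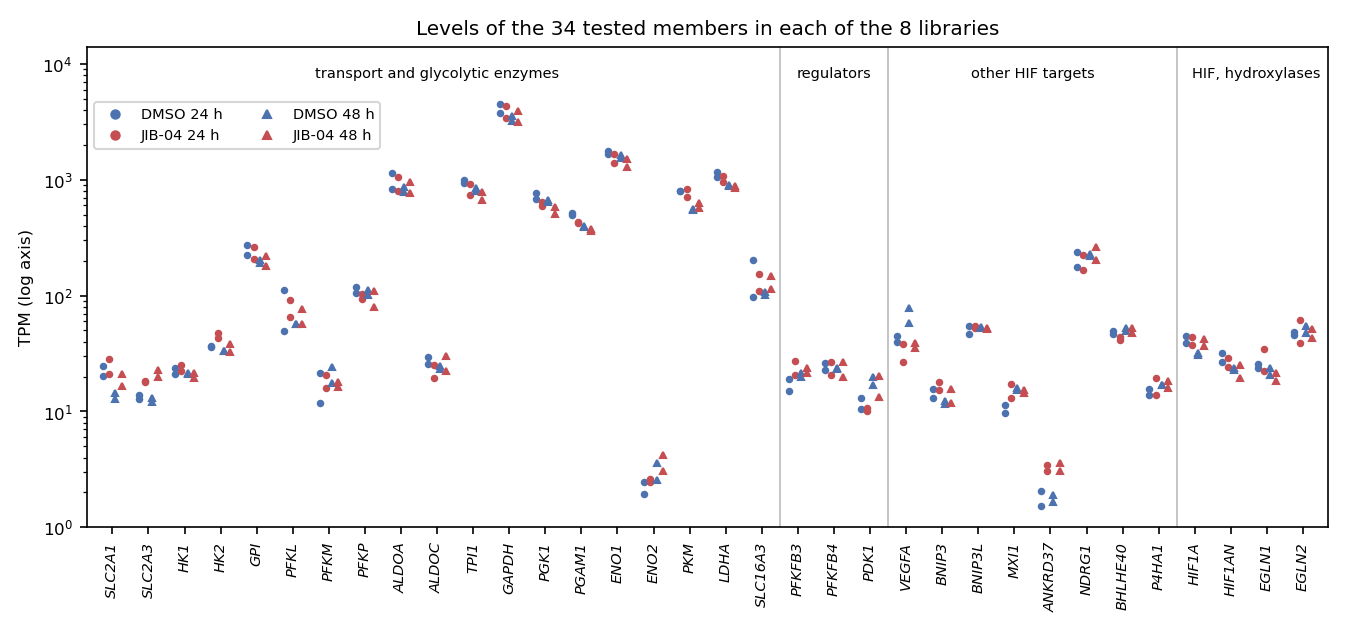
Level of each of the 34 tested members in TPM on a log axis, with 1 point per library, coloured by treatment and shaped by time. GAPDH lay between 3177 and 4510.3 TPM in every library, while ENO2 and ANKRD37 stayed below 5 TPM.

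The remaining members were lower. NDRG1, a stress-response gene, had a mean of 214 TPM, SLC16A3 (the lactate exporter MCT4) 129 TPM, PFKP 103 TPM and PFKL 70.4 TPM. BNIP3L, EGLN2, BHLHE40, VEGFA, HIF1A and HK2 lay between 37.5 and 52.3 TPM, and HIF1AN, ALDOC, PFKFB4, EGLN1, HK1, PFKFB3, SLC2A1, PFKM, SLC2A3, P4HA1, PDK1, BNIP3 and MXI1 between 14.1 and 25.3 TPM. ENO2, the neuronal enolase, and ANKRD37, an ankyrin-repeat HIF target, had means of 2.86 and 2.55 TPM. ADM (adrenomedullin, a secreted vasodilator peptide) had 0 to 3 counts per library and EGLN3 0 or 1, so neither passed the filter and neither was tested.

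Of the steps and families with several gene copies, enolase and aldolase were dominated by 1 copy, while the others were more divided. ENO1 held 99.7% to 99.9% of the enolase TPM and ALDOA 97.0% to 97.7% of the aldolase TPM per library. HK2, the inducible hexokinase, held 60.1% to 64.9% of the hexokinase TPM, with HK1 at 33.8% to 38.8% and HK3 at 0.874% to 1.62%. LDHB, which is not a member, held more than LDHA in every library, 59.6% to 66.8% against 33.2% to 40.4%. Phosphofructokinase was split between PFKP, at 48.2% to 60.1%, and PFKL, at 28.3% to 45.8%, with PFKM at 4.91% to 13.3%. BNIP3L held 74.6% to 81.9% of the pair it forms with BNIP3, both mitophagy receptors. EGLN2 held 53.0% to 73.5% of the EGLN TPM, EGLN1 26.5% to 47.0% and EGLN3 at most 0.0267%. The widest EGLN split fell between replicates, since EGLN1 held 26.6% in the first JIB-04 library at 24 h and 47.0% in the second.

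**Figure D2:**
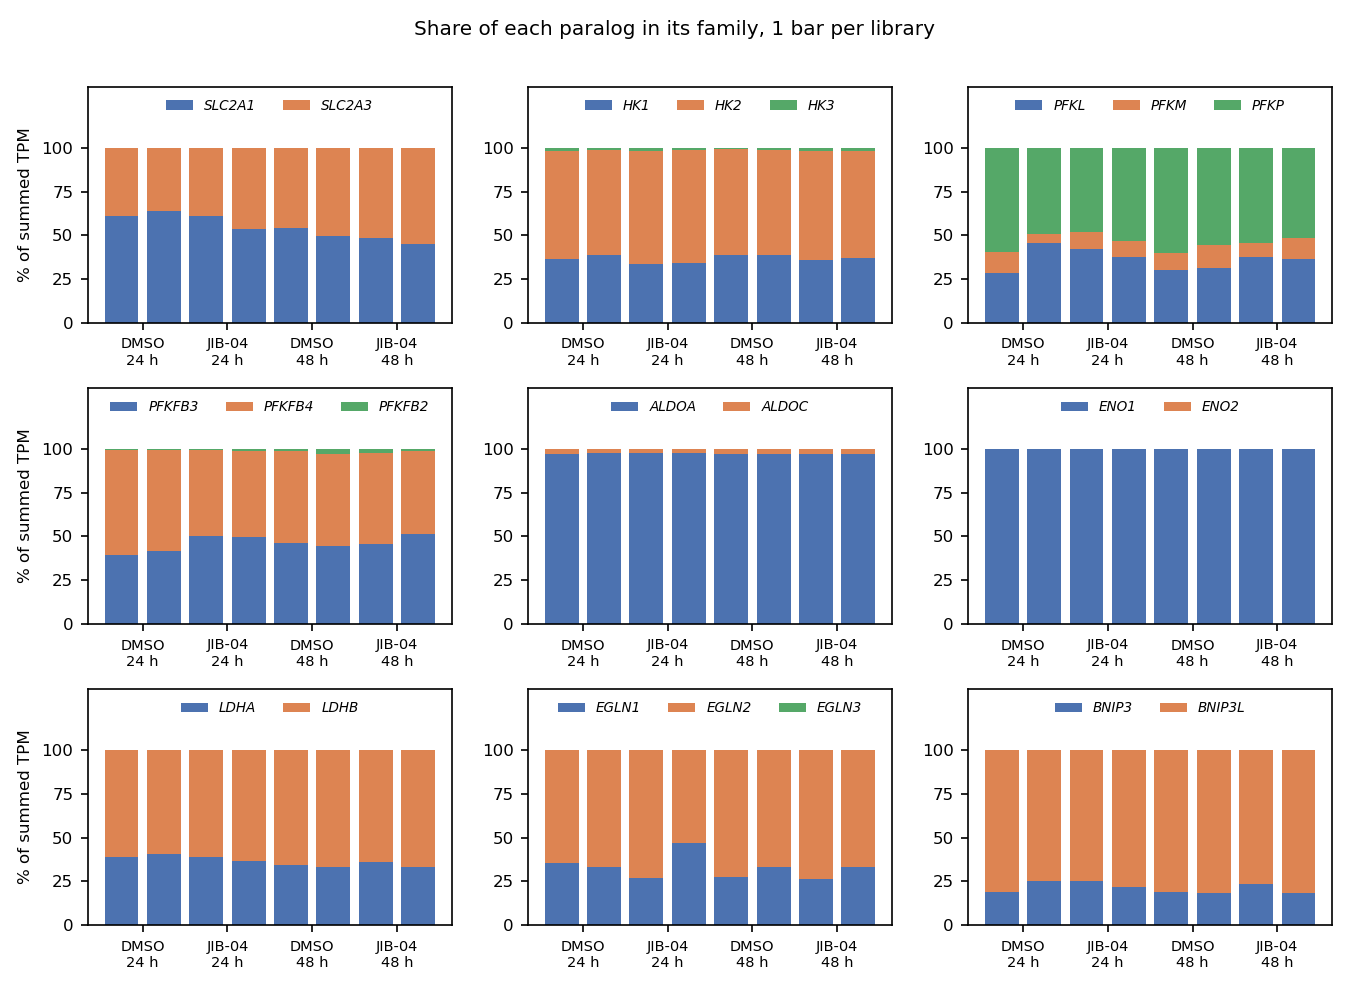
Share of each paralog in the summed TPM of its family, as stacked bars with 1 bar per library, replicate 1 before replicate 2 within each group. ENO1 and ALDOA filled nearly all of their families in all 8 libraries, while the SLC2A3 share ran from 36.0% to 54.8%.

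Between the glucose transporters the balance differed among the groups. SLC2A3 (GLUT3) held 38.8% and 36.0% of the TPM of SLC2A1 and SLC2A3 in the DMSO libraries of 24 h, against 39.1% and 46.5% under JIB-04. In the libraries of 48 h its share was 45.8% and 50.4% without and 51.6% and 54.8% under the drug. On this scale the share was above both DMSO libraries of the same time in all 4 JIB-04 libraries. On scaled counts, which are not per length, the groups overlapped at both times, at 44.4% and 36.1% for DMSO against 43.9% and 53.9% for JIB-04 after 24 h, and at 55.3% and 57.0% against 56.4% and 62.4% after 48 h. PFKFB3, which makes the allosteric activator of phosphofructokinase, held 39.3% and 41.5% of the summed TPM of PFKFB3, PFKFB4 and PFKFB2 in the DMSO libraries of 24 h, against 50.3% and 49.5% under JIB-04. After 48 h the groups overlapped, at 46.4% and 44.6% for DMSO against 45.6% and 51.5% for the drug. With 2 libraries in each group an exact permutation test of these shares cannot reach 0.05, and none was run.

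JIB-04 was compared with DMSO at 24 h, at 48 h and as the mean of both effects, with a gene counted as passing at an adjusted p under 0.05 in edgeR's quasi-likelihood test over all 15248 genes. SLC2A3 was the member that rose with JIB-04, by 0.67 ± 0.09 (SE) on the log2 scale in the mean effect, or 1.59-fold. It was 1 of the 34 tested members, beside 1.08% of all genes passing in that comparison (0.8% higher). At 24 h 0 members passed, beside 0.0% of all genes, and at 48 h 0 members passed, beside 0.387%. At 24 h 5 members had an unadjusted p under 0.05, beside 10.8% of all genes, of which 3 were higher (6.74% of all genes) and 2 lower (4.06%). At 48 h there were 5, beside 9.69%, with 4 higher (5.19%) and 1 lower (4.5%). In the mean effect there were 7, beside 14.6%, with 4 higher (8.5%) and 3 lower (6.08%). DESeq2 called 1 member at 24 h, SLC2A3, beside 0.597% of all genes, and 2 at 48 h, SLC2A3 and VEGFA, beside 0.971%.

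The members did not share a direction. At 24 h 14 of the 34 had a positive log2 fold change and 20 a negative one, with a median of -0.08 beside 0.02 over all genes. At 48 h 23 were positive and 11 negative, with a median of 0.08 beside 0.01, while DESeq2 gave 19 and 15. In the mean effect 18 were positive and 16 negative, with a median of 0.00 beside 0.02, and DESeq2 gave 16 and 18. The JIB-04 libraries lay wholly above the DMSO libraries for 6 members and wholly below for 7 at 24 h, beside 18.1% and 15.6% of all genes. At 48 h they lay above for 11 and below for 8, beside 25.8% and 23.7%.

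**Figure D3:**
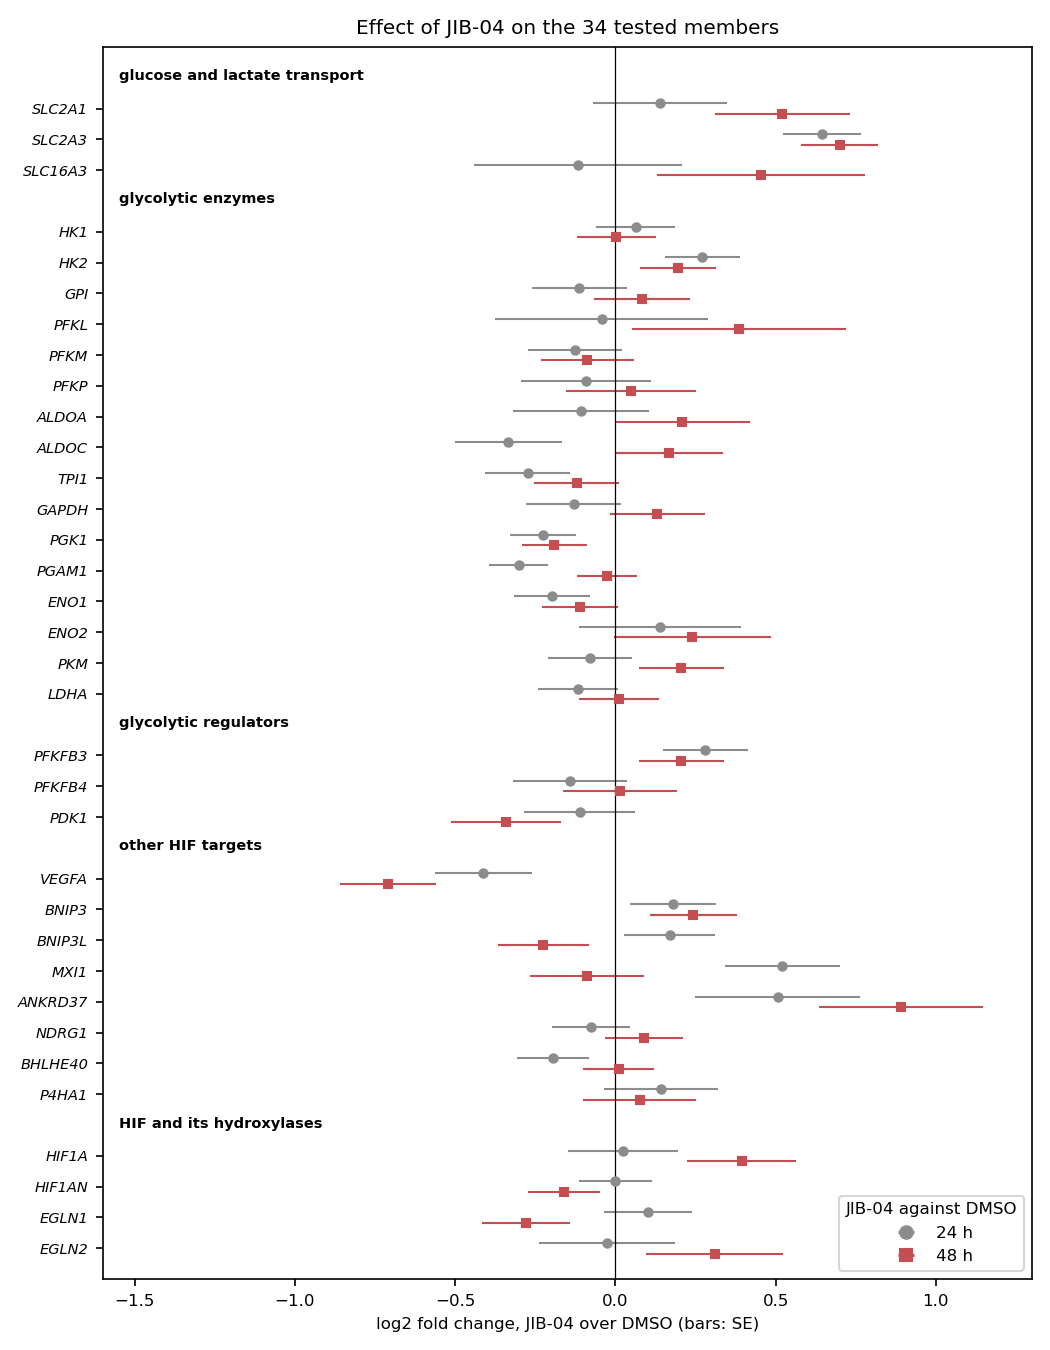
Log2 fold change of JIB-04 over DMSO with its standard error for the 34 tested members, at 24 h (grey circles) and 48 h (red squares), grouped by role. SLC2A3 lay at 0.64 and 0.70 and VEGFA at -0.41 and -0.71, while the glycolytic enzymes lay between -0.33 and 0.39.

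Of the transporters, SLC2A3 (ENSG00000059804, chr12:7919230-7936275 on hg38, minus strand), which imports glucose with high affinity, stood at 30.3 and 27.6 CPM in DMSO at 24 h and at 43.4 and 47.2 CPM with JIB-04. After 48 h SLC2A3 stood at 35.3 and 35.5 CPM in DMSO and at 58.6 and 56.4 CPM with JIB-04. All 4 JIB-04 libraries were above all 4 DMSO libraries. The log2 fold change was 0.64 ± 0.12 at 24 h (edgeR unadjusted p = 0.000596, adjusted p = 0.159) and 0.70 ± 0.12 at 48 h (unadjusted p = 0.000328, adjusted p = 0.0685). The mean effect had a 95% interval of 0.48 to 0.87 and passed, with an adjusted p of 0.0153 that ranged from 1.77e-06 to 0.146 over the alternatives. The effects at the 2 times differed by 0.06 ± 0.17 (95% interval -0.33 to 0.44).

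The call on SLC2A3 did not hold with every library left out in turn. Each such fit left 1 library in a group, and in some of them fewer genes passed over the whole set as well. Without the second JIB-04 library at 24 h the adjusted p was 0.0560, without either DMSO library at 48 h it was 0.146 and 0.141, and without either JIB-04 library at 48 h it was 0.0859 and 0.0724, while the log2 fold change stayed between 0.62 and 0.69 in these fits. At 48 h alone the effect passed without the second DMSO library at 24 h (adjusted p = 0.0491). The adjusted p of the mean effect was 0.0707 on log2(TPM + 1) values with limma, where the difference was 0.57. Reads may also be shared with near-identical copies, which held 36.8% of the counts given to SLC2A3 and its pseudogenes. The processed pseudogene SLC2A3P1 stood at 24.9 and 19.9 CPM in DMSO and 20.1 and 23.0 CPM with JIB-04 at 24 h, and at 26.3 and 24.8 CPM and 23.6 and 30.3 CPM at 48 h. Its groups overlapped at both times, with a mean log2 effect of 0.01 ± 0.12 (edgeR adjusted p = 0.983). Summed over SLC2A3 and its copies, the level was 55.7 and 47.8 CPM in DMSO and 64.0 and 71.2 CPM with JIB-04 at 24 h, and 62.2 and 61.0 CPM and 82.4 and 87.3 CPM at 48 h. The JIB-04 libraries were above the DMSO libraries of their time for the sum too, with log2 differences of 0.39 and 0.46 that were not tested.

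SLC2A1 (GLUT1), the widespread basal glucose importer, stood at 37.9 and 49.0 CPM in DMSO and at 55.5 and 40.3 CPM with JIB-04 at 24 h, where the groups overlapped. After 48 h SLC2A1 stood at 28.5 and 26.8 CPM in DMSO and at 45.4 and 34.1 CPM with JIB-04, both above DMSO. The log2 fold change at 48 h was 0.52 ± 0.21 (edgeR unadjusted p = 0.0378, adjusted p = 0.479), and at 24 h it was 0.14 ± 0.21. The 24 h value turned negative without the first DMSO library at 24 h (-0.03) and without the first JIB-04 library (-0.11). SLC16A3 stood at 89.6 and 192 CPM in DMSO and 151 and 108 CPM with JIB-04 at 24 h, and at 104 CPM in both DMSO libraries and 164 and 121 CPM with JIB-04 at 48 h. The DMSO libraries at 24 h spanned the JIB-04 ones, and the log2 fold changes were -0.12 ± 0.32 and 0.45 ± 0.33. SLC16A3 shares 482 exon bases with CSNK1D on the opposite strand, whose mean count was 80.6% of its own, and since strand use in counting is not stated, its counts are uncertain. The 3 transporters had a median of 0.14 at 24 h and 0.52 at 48 h, beside 0.02 and 0.01 over all genes. With a trend on GC content removed from each library, SLC16A3 at 48 h was at 0.18 (edgeR adjusted p = 0.299). SLC2A1 and SLC2A3 were then at 0.49 and 0.72. At 48 h all 3 had JIB-04 libraries above DMSO, beside 25.8% of all genes.

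**Figure D4:**
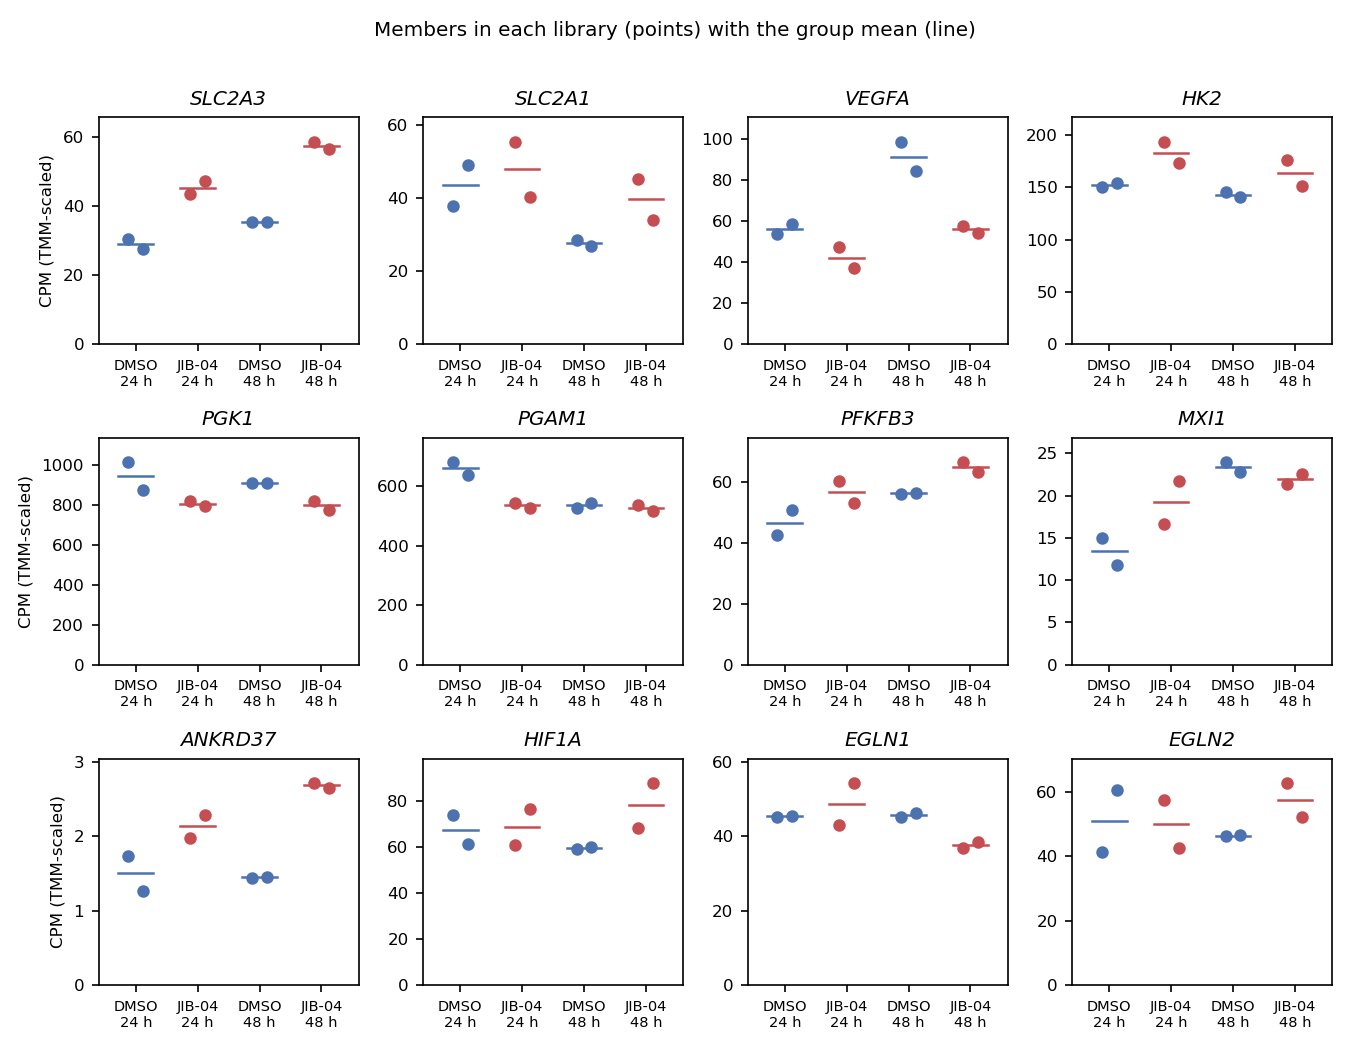
TMM-scaled CPM of 12 members in each library (points) with the group mean (line), DMSO in blue and JIB-04 in red, each panel starting at 0. For SLC2A3 the 4 JIB-04 points sit between 43.4 and 58.6 CPM, above the DMSO points between 27.6 and 35.5 CPM, while for SLC2A1, HIF1A and EGLN2 the points overlap at 24 h.

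None of the 16 glycolytic enzymes passed at either time or in the mean effect, with edgeR's unadjusted p under 0.05 for 1 higher and 1 lower at 24 h (6.74% and 4.06% of all genes), for 0 at 48 h (9.69% in both directions) and for 1 higher and 2 lower in the mean effect (8.5% and 6.08%). DESeq2 called 0 of them as well. At 24 h 13 of the 16 had a negative log2 fold change, with a median of -0.11, and 5 had JIB-04 libraries wholly below DMSO and 1 wholly above, beside 15.6% and 18.1% of all genes. At 48 h 11 were positive, with a median of 0.07, or 9 with a GC trend removed from each library and 9 in DESeq2. The libraries at 48 h did not overlap for 3 higher and 2 lower, beside 25.8% and 23.7% of all genes. For 14 of the 16 the log2 fold change was larger, or less negative, at 48 h, beside 51.0% of all genes. The median difference was 0.15 beside 0.01 over all genes. The sign of the difference changed in at least 1 alternative for PFKP, ENO1, PGK1, TPI1, ENO2, LDHA, PFKL, PFKM, HK1 and HK2. No enzyme passed the test of that difference.

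HK2 (chr2:74833981-74893359), which traps glucose by phosphorylating it, stood at 149.9 and 154 CPM in DMSO and 194 and 173 CPM with JIB-04 at 24 h. At 48 h it stood at 145 and 141 CPM in DMSO and 176 and 151 CPM with JIB-04. The JIB-04 libraries were above the DMSO ones at both times, by 0.27 ± 0.12 and 0.20 ± 0.12 on the log2 scale. The mean effect of 0.23 ± 0.08 did not pass (edgeR unadjusted p = 0.0219, adjusted p = 0.254). HK1, the housekeeping hexokinase, had log2 fold changes of 0.06 ± 0.12 and 0.00 ± 0.12.

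PGK1 (chrX:77910739-78129296), the kinase of the first ATP-yielding step, stood at 1013 and 873 CPM in DMSO and 818 and 794 CPM with JIB-04 at 24 h, and at 911 and 909 CPM and 819 and 776 CPM at 48 h. All 4 JIB-04 libraries were below all 4 DMSO libraries, although by little. The mean effect of -0.21 ± 0.07 did not pass (edgeR unadjusted p = 0.0196, adjusted p = 0.242). PGAM1, the phosphoglycerate mutase, stood at 680.0 and 639 CPM in DMSO and 543 and 526 CPM with JIB-04 at 24 h, and at 527 and 542 CPM and 535 and 515 CPM at 48 h. Its groups were apart at 24 h, at -0.30 ± 0.09 (edgeR unadjusted p = 0.0109, adjusted p = 0.327), and overlapped at 48 h, at -0.03 ± 0.09.

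Of the most abundant paralogs of the other steps, ALDOA and PFKP had overlapping groups at both times. ALDOA stood at 646 and 943 CPM in DMSO and 851 and 624 CPM with JIB-04 at 24 h, and at 714 and 655 CPM and 883 and 699 CPM at 48 h. PFKP stood at 135 and 206 CPM and 176 and 145 CPM at 24 h, and at 157 CPM in each DMSO library and 180.1 and 144 CPM at 48 h. ENO1 stood at 1985 and 2068 CPM in DMSO and 1931 and 1603 CPM with JIB-04 at 24 h, and at 2014 and 1914 CPM and 1958 and 1681 CPM at 48 h. The JIB-04 libraries of ENO1 were below DMSO at 24 h, at -0.20 ± 0.12, and overlapped it at 48 h, at -0.11 ± 0.12. LDHB stood at 1654 and 1361 CPM and 1289 and 1569 CPM at 24 h, and at 1568 and 1654 CPM and 1468 and 1733 CPM at 48 h, with overlap at both times.

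The remaining enzymes had log2 fold changes between -0.33 and 0.14 at 24 h and between -0.12 and 0.39 at 48 h. The lowest at 24 h were ALDOC at -0.33 ± 0.17 and TPI1, the triose phosphate isomerase, at -0.27 ± 0.13. The widest error was that of PFKL, at -0.04 ± 0.33 and 0.39 ± 0.33, whose DMSO libraries at 24 h stood at 101 and 223 CPM. With a GC trend removed from each library, PFKL was at -0.03 and 0.06. GAPDH was at -0.13 ± 0.15 and 0.13 ± 0.15, PKM (pyruvate kinase) at -0.08 ± 0.13 and 0.21 ± 0.13, and LDHA at -0.12 ± 0.12 and 0.01 ± 0.12. GPI, PFKM and ENO2 had values of -0.11, -0.13 and 0.14 at 24 h and 0.08, -0.09 and 0.24 at 48 h. For PFKM, 628 exon bases overlap SENP1 on the opposite strand, and no source used here states whether strand was considered in counting, so reads of the 2 genes may not be told apart.

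Among the regulators, PFKFB3 stood at 42.5 and 50.8 CPM in DMSO and 60.2 and 53.2 CPM with JIB-04 at 24 h, and at 56.2 and 56.3 CPM and 66.5 and 63.2 CPM at 48 h. The JIB-04 libraries were above DMSO at both times, and the mean effect of 0.24 ± 0.09 did not pass (edgeR unadjusted p = 0.0299, adjusted p = 0.286). PFKFB4, a related bifunctional enzyme and the most abundant of its family by mean TPM, stood at 39.1 and 45.7 CPM and 42.8 and 34.1 CPM at 24 h, and at 43.9 and 44.5 CPM and 51.0 and 38.3 CPM at 48 h. Its groups overlapped at both times. PDK1, the kinase that shuts pyruvate out of the mitochondrial pyruvate dehydrogenase step, had log2 fold changes of -0.11 ± 0.17 and -0.34 ± 0.17, and at 48 h its JIB-04 libraries (30.8 and 37.3 CPM) were below its DMSO libraries (43.2 and 43.3 CPM).

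The other HIF targets moved in different directions. Of 8 tested, 5 had positive and 3 negative values at each time (4 and 4 at 48 h in DESeq2), with medians of 0.16 and 0.04, and 0 passed in either comparison or in the mean effect, with edgeR's unadjusted p under 0.05 for 1 higher and 1 lower in each. Over all genes the higher and lower shares were 6.74% and 4.06% at 24 h, 5.19% and 4.5% at 48 h, and 8.5% and 6.08% in the mean effect. VEGFA (ENSG00000112715, chr6:43770184-43786487), the main angiogenic growth factor, stood at 53.6 and 58.6 CPM in DMSO and 47.1 and 37.1 CPM with JIB-04 at 24 h. After 48 h the level of VEGFA was 98.8 and 84.3 CPM in DMSO and 57.9 and 54.2 CPM with JIB-04. The JIB-04 libraries were below DMSO at both times, and the JIB-04 libraries at 48 h lay close to the DMSO libraries at 24 h. The log2 fold change was -0.41 ± 0.15 at 24 h (edgeR unadjusted p = 0.0245, adjusted p = 0.390) and -0.71 ± 0.15 at 48 h (unadjusted p = 0.00132, adjusted p = 0.137).

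The mean effect on VEGFA was -0.56 ± 0.11, with an edgeR adjusted p of 0.0550 and a range from 0.000422 to 0.309 over the alternatives. Among the alternatives, it passed in DESeq2 (-0.58, adjusted p = 0.000454), with a GC trend removed (-0.54, 0.000422), with RLE scaling (0.0485), with the filter on low counts removed (0.0335), and without the first JIB-04 library at 24 h (0.0465, at -0.65). DESeq2 also called VEGFA at 48 h, with an adjusted p of 0.00642. In the authors' deposited table VEGFA had a log2 fold change of -0.72 at 48 h with an adjusted p of 2.08e-05, and SLC2A3 had 0.69 with 0.00011. These were the members with an adjusted p under 0.05 in the authors' deposited table at 48 h, beside 3.43% of its genes with a value, and at 24 h no member had one, beside 0.0987%.

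ANKRD37 stood at 1.73 and 1.27 CPM in DMSO and 1.98 and 2.28 CPM with JIB-04 at 24 h, and at 1.44 and 1.45 CPM and 2.72 and 2.65 CPM at 48 h. All 4 JIB-04 libraries were above all 4 DMSO libraries. The log2 fold change was 0.89 ± 0.26 at 48 h (edgeR unadjusted p = 0.00778, adjusted p = 0.299), and the mean effect was 0.70 ± 0.18 (adjusted p = 0.134). ANKRD37 shares 909 exon bases with UFSP2 on the opposite strand, and UFSP2 had a mean of 294 counts per library against 39.6 for ANKRD37, so its counts are uncertain if the strand was not used.

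MXI1, a MYC antagonist, stood at 15.0 and 11.8 CPM in DMSO and 16.7 and 21.8 CPM with JIB-04 at 24 h, and at 24.0 and 22.8 CPM and 21.4 and 22.6 CPM at 48 h. The JIB-04 libraries were above DMSO at 24 h and below it at 48 h. The log2 fold change was 0.52 ± 0.18 at 24 h (edgeR unadjusted p = 0.0192, adjusted p = 0.369) and -0.09 ± 0.18 at 48 h. The difference between these effects, -0.61 ± 0.25, had an unadjusted p of 0.0408 and an adjusted p of 0.931 in edgeR. BNIP3L stood at 58.6 and 51.8 CPM and 55.3 and 68.8 CPM at 24 h, with overlap, and at 70.4 and 68.0 CPM and 56.2 and 62.2 CPM at 48 h, with JIB-04 below DMSO. Its log2 fold changes were 0.17 ± 0.14 and -0.22 ± 0.14.

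The other 4 tested targets had log2 fold changes between -0.20 and 0.18 at 24 h and between 0.01 and 0.24 at 48 h. BNIP3, whose counts stood beside pseudogenes that held 23.9% of the total, was at 0.18 ± 0.13 and 0.24 ± 0.13. P4HA1, a subunit of the collagen prolyl hydroxylase, was at 0.14 ± 0.18 and 0.08 ± 0.18. BHLHE40, a transcriptional repressor of the clock and differentiation, was at -0.20 ± 0.11 and 0.01 ± 0.11, and NDRG1 at -0.08 ± 0.12 and 0.09 ± 0.12.

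HIF1A and its hydroxylases did not pass in any JIB-04 comparison, with edgeR's unadjusted p under 0.05 for HIF1A at 48 h alone, and DESeq2 called 0 of the 4 tested. HIF1A, the oxygen-regulated alpha subunit, stood at 73.9 and 61.4 CPM in DMSO and 60.9 and 76.7 CPM with JIB-04 at 24 h, where the groups spanned the same range. At 48 h it stood at 59.3 and 59.9 CPM in DMSO and 68.5 and 88.1 CPM with JIB-04, both above DMSO. The log2 fold change was 0.02 ± 0.17 at 24 h and 0.39 ± 0.17 at 48 h (edgeR unadjusted p = 0.0493, adjusted p = 0.513). HIF protein, which hydroxylation controls, was not measured by these libraries.

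EGLN1 (PHD2), the main HIF prolyl hydroxylase in most cells, stood at 45.2 and 45.5 CPM in DMSO and 43.0 and 54.4 CPM with JIB-04 at 24 h, and at 45.3 and 46.1 CPM and 36.9 and 38.4 CPM at 48 h. The groups overlapped at 24 h, and at 48 h both JIB-04 libraries were below DMSO, by -0.28 ± 0.14 on the log2 scale (95% interval -0.60 to 0.04, edgeR adjusted p = 0.571). EGLN2 (PHD1) stood at 41.2 and 60.7 CPM and 57.4 and 42.6 CPM at 24 h, and at 46.3 and 46.5 CPM and 62.8 and 52.2 CPM at 48 h. Its groups overlapped at 24 h and its JIB-04 libraries were above DMSO at 48 h, by 0.31 ± 0.21 (95% interval -0.18 to 0.80, adjusted p = 0.682), while the difference was -0.11 on log2(TPM + 1) with limma. EGLN3 (PHD3), itself a known HIF target, had 2 counts in all 8 libraries together, 1 in a JIB-04 library at 24 h and 1 in a DMSO library at 48 h. HIF1AN (FIH) stood at 108 and 96.9 CPM and 99.1 and 106 CPM at 24 h, and at 106 and 99.5 CPM and 88.8 and 95.0 CPM at 48 h. Its groups overlapped at 24 h, at 0.00 ± 0.11, and JIB-04 was below DMSO at 48 h, at -0.16 ± 0.11 (95% interval -0.42 to 0.10). HIF1AN shares 325 exon bases with NDUFB8 on the opposite strand, so the limit given for PFKM applies to it as well.

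The JIB-04 effects at 48 h and 24 h were also compared with each other. For 24 of the 34 members the effect was larger, or less negative, at 48 h, beside 51.0% of all genes. The median difference was 0.13 beside 0.01 over all genes, and its sign changed in at least 1 alternative for 19 of the 34. No member passed, beside 0.0% of all genes, and edgeR's unadjusted p was under 0.05 for MXI1 alone, which was lower, beside 5.23% of all genes (2.17% higher and 3.06% lower), while DESeq2 called 0 members.

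Time in culture without the drug was the background for these effects, and it involved differences of similar size. Between the DMSO libraries at 48 h and 24 h, which also serve as the controls of the JIB-04 comparisons, 0 members passed in edgeR, beside 0.426% of all genes. The unadjusted p was under 0.05 for 6 higher and 3 lower, beside 6.84% and 5.38% of all genes (12.2% in both directions), and DESeq2 called VEGFA (adjusted p = 0.00923) and MXI1 (0.0269). The libraries at 48 h lay wholly above those at 24 h for 11 members and wholly below for 10, beside 25.9% and 18.7% of all genes. VEGFA was at 0.71 ± 0.15, MXI1 at 0.81 ± 0.18 and PDK1 at 0.68 ± 0.17 on the log2 scale, and BNIP3L, PFKM and SLC2A3 at 0.33 ± 0.14, 0.34 ± 0.15 and 0.29 ± 0.12, although SLC2A3 was at -0.067 on log2(TPM + 1). PKM was at -0.46 ± 0.13, PGAM1 at -0.30 ± 0.09 and SLC2A1 at -0.65 ± 0.21. Of the 8 tested HIF targets, 6 had 48 h libraries wholly above those at 24 h and 1 wholly below, with a median of 0.24, while 13 of the 16 enzymes had negative values, with a median of -0.14 beside 0.01 over all genes. The same DMSO libraries enter the JIB-04 comparisons, so the values over time and those of JIB-04 are not independent.

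Replicate libraries differed in a way that followed GC content. Of 5 equal groups of genes by GC content, the richest deviated from the mean of all libraries by a median of -0.33 and 0.32 on the log2 scale in the DMSO libraries at 24 h, by 0.22 and -0.18 with JIB-04 at 24 h, by -0.11 and -0.10 in DMSO at 48 h and by 0.27 and -0.04 with JIB-04 at 48 h. The members had a median GC content of 52.8% (36.4% to 64.1%), beside 48.3% over all tested genes. PFKL, the richest in GC, differed by 1.14 between its DMSO replicates at 24 h, replicate 2 minus replicate 1, and by -0.51, 0.13 and -0.41 in the other groups in the order JIB-04 at 24 h, DMSO at 48 h and JIB-04 at 48 h. HIF1A, the poorest in GC, differed by -0.27, 0.33, 0.02 and 0.36 over the same 4 groups. The median size of the replicate difference over the members was 0.21, 0.29, 0.06 and 0.21, so DMSO at 48 h was the tightest group.

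**Figure D5:**
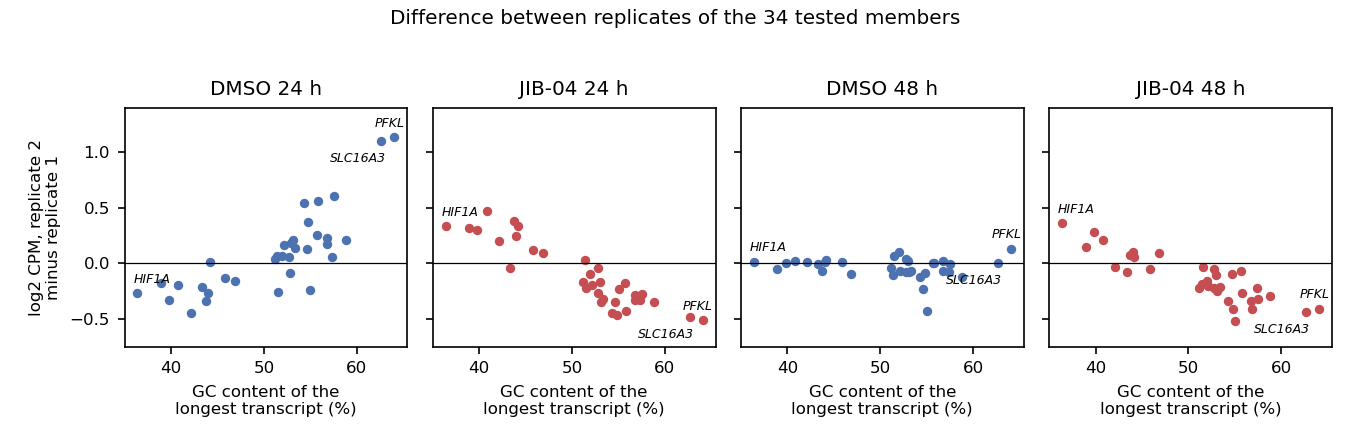
Difference in log2 CPM between replicate 2 and replicate 1 against the GC content of the longest transcript, for the 34 tested members in each group. The points slope upward in DMSO at 24 h and downward in both JIB-04 groups, with PFKL at 1.14 and -0.51 at 24 h, and are nearly flat in DMSO at 48 h.

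With a smooth GC trend removed from each library, more genes passed overall and among the members. At 24 h 6 members then passed in edgeR, beside 10.5% of all genes. SLC2A3 (0.63), MXI1 (0.47), PFKFB3 (0.34) and HK2 (0.32) were higher, beside 6.33% of all genes, and VEGFA (-0.35) and PGAM1 (-0.24) lower, beside 4.13%. At 48 h 6 passed, beside 7.78%. ANKRD37 (0.91), SLC2A3 (0.72), SLC2A1 (0.49) and HIF1A (0.46) were higher, beside 4.62%, and VEGFA (-0.73) and PDK1 (-0.32) lower, beside 3.16%. In the mean effect 11 passed, beside 17.5% (10.0% higher and 7.49% lower), with BNIP3 (0.25) as a further rise and TPI1 (-0.23) and PGK1 (-0.22) as further falls. The effects at 48 h and 24 h then differed for HIF1A, by 0.62 with an adjusted p of 0.0163, beside 1.04% of all genes passing. Between the DMSO libraries at the 2 times 13 members passed, 8 higher and 5 lower, beside 13.4%. Whether this correction removes only technical differences was not tested.

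The wider pathway was read from further lists of genes. Of 33 other tested glycolysis and pyruvate genes, 10 pentose phosphate genes, 22 regulators of the HIF pathway and 32 other 2-oxoglutarate hydroxylases, 0 passed at 24 h, at 48 h or in the mean effect in edgeR. Their medians lay between -0.03 and 0.04 at 24 h and between 0.00 and 0.06 at 48 h, beside 0.02 and 0.01 over all genes. In the same order of lists, the unadjusted p was under 0.05 for 3, 0, 1 and 5 of them at 24 h, beside 10.8% of all genes, for 2, 0, 2 and 1 at 48 h, beside 9.69%, and for 4, 0, 5 and 6 in the mean effect, beside 14.6%. DESeq2 called PCK2 at 24 h and in the mean effect (adjusted p = 0.00123 and 3.91e-05) and 0 others of these lists in the same comparisons. PCK2, the mitochondrial enzyme that turns oxaloacetate into phosphoenolpyruvate, stood at 175 and 241 CPM in DMSO and 125 and 91.2 CPM with JIB-04 at 24 h, and at 245 and 231 CPM and 181 and 146 CPM at 48 h. Its JIB-04 libraries were below DMSO at both times, with a mean effect of -0.74 ± 0.14 and an edgeR adjusted p of 0.0551.

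Other genes of smallest p in these lists had smaller values. The pyruvate dehydrogenase phosphatase PDP1, which opposes PDK1, had log2 fold changes of 0.47 ± 0.16 and 0.46 ± 0.17, and its relative PDP2 0.52 ± 0.16 and 0.03 ± 0.16. VHL, the ubiquitin ligase subunit that captures hydroxylated HIF, was at -0.23 ± 0.11 and -0.28 ± 0.11, and the HIF co-activator CREBBP at 0.37 ± 0.13 and 0.29 ± 0.13. LIMD1, a scaffold of the VHL complex, was at 0.19 ± 0.12 and 0.29 ± 0.12. Of the hydroxylases, TMLHE, of carnitine synthesis, was at 0.49 ± 0.18 and 0.51 ± 0.18, the RNA demethylase FTO at 0.35 ± 0.12 and 0.13 ± 0.12, ASPH at 0.27 ± 0.12 and -0.24 ± 0.12, and ASPHD2 at 0.66 ± 0.24 and 0.12 ± 0.23. The pentose phosphate genes TALDO1, PRPS1, PRPS2 and RPE lay between -0.17 and 0.06 at 24 h and between -0.27 and 0.10 at 48 h.

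The list of 33 further tested HIF targets held genes that passed. In the mean effect 2 rose and 3 fell, beside 0.8% and 0.275% of all genes, and at 48 h 1 rose and 1 fell, beside 0.315% and 0.0721%, while the list median was 0.05 in the mean effect and 0.04 at 48 h. The list was chosen with earlier results of these data known. Its excess over the shares of all genes is therefore not a result about HIF targets. NFIL3, a basic leucine zipper repressor, rose from 13.4 and 12.4 CPM to 30.6 and 37.1 CPM at 48 h, by 1.39 ± 0.21 (edgeR adjusted p = 0.0431). STC2, a secreted stanniocalcin, fell from 86.6 and 90.8 CPM to 44.5 and 44.8 CPM, by -0.99 ± 0.15 (adjusted p = 0.0431). Both had JIB-04 libraries clear of DMSO at 24 h as well. TFRC, the transferrin receptor, which brings in iron, stood at 221 and 186 CPM in DMSO and 439 and 572 CPM with JIB-04 at 24 h, and at 189.9 and 198 CPM and 268 and 314 CPM at 48 h.

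The JIB-04 libraries of TFRC were above DMSO at both times, and its mean effect was 0.95 ± 0.11 (edgeR adjusted p = 0.0104). The mean effects on VLDLR, a lipoprotein receptor, and on DDIT4, an inhibitor of mTORC1, were -0.85 ± 0.10 (adjusted p = 0.0100) and -1.13 ± 0.20 (adjusted p = 0.0440). Between the DMSO libraries, the growth-factor-responsive regulator KLF10 was higher at 48 h than at 24 h by 0.79 ± 0.12 (adjusted p = 0.0351). EPAS1, which encodes HIF-2 alpha, fell between these times from 26.0 and 30.3 CPM to 12.3 CPM in each library, by -1.20 ± 0.15 (adjusted p = 0.0212). With JIB-04, EPAS1 stood at 26.7 and 24.2 CPM at 24 h and at 13.4 and 11.8 CPM at 48 h, overlapping DMSO at both times.

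The calls on these further genes did not hold with every library left out in turn, while their log2 fold changes kept their sign. Each such fit left 1 library in a group, and in some of them fewer genes passed over the whole set as well. Leaving out either DMSO library at 48 h ended all of them, with edgeR adjusted p-values of 0.111 and 0.0862 for TFRC, 0.0867 and 0.0862 for STC2, 0.0921 and 0.0862 for VLDLR, 0.155 and 0.175 for NFIL3 and 0.176 and 0.225 for DDIT4 in the mean effect. Without the second JIB-04 library at 48 h the mean effects on TFRC and STC2 (0.0512 each), NFIL3 (0.0979) and DDIT4 (0.176) did not pass either. Those on NFIL3 and DDIT4 were also lost without the first JIB-04 library at 48 h (0.0741 and 0.113) and without the second at 24 h (0.0716 and 0.132), and that on DDIT4 without the first at 24 h (0.100). For the effects at 48 h, leaving out a library of that time gave 0.256 to 0.468 for STC2 and 0.167 to 0.480 for NFIL3, which was also lost without the second JIB-04 library at 24 h (0.0519). Over all 8 such fits, the log2 fold change in the mean effect stayed between 0.85 and 1.04 for TFRC, -1.09 and -0.91 for STC2, -0.94 and -0.81 for VLDLR, 0.88 and 1.11 for NFIL3, and -1.33 and -0.84 for DDIT4. At 48 h it stayed between -1.03 and -0.96 for STC2 and at or above 1.24 for NFIL3.

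Between the DMSO groups, EPAS1 was lost without either DMSO library at 48 h (0.295 and 0.356), the second DMSO library at 24 h (0.0591) or the second JIB-04 library at 48 h (0.0519). KLF10 passed in 1 of these fits alone, the one without the first JIB-04 library at 24 h (edgeR adjusted p = 0.0484), with a highest value of 0.509. Over the 8 fits EPAS1 had a log2 fold change between -1.30 and -1.08 and KLF10 one between 0.71 and 0.88.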

How the data were processed

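RNA-seq covered 8 libraries in 4 groups, assigned from the sample labels. Per the labels, RNA was isolated with TRIzol and libraries were made with a stranded Illumina mRNA kit. Per the submitters' processing notes, the tools were Cutadapt, STAR 2.6.1 and RSEM with hg38. Strand use in counting is not stated in any source used here. The authors deposited, per the file headers, expected counts and TPM per gene and library in 1 table for each time, and their own log2 fold changes, p-values and adjusted p-values for JIB-04 against DMSO. The deposited expected counts were whole numbers and were used as they stood. The tables, of 27083 and 26805 genes, were joined on the 24077 genes in both, which left out 0.00581% of counts.

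The 8 libraries were fitted together in edgeR 4.0.16 (R 4.3.3; TMM scaling; filterByExpr with a minimum count of 10 and total of 15; 1 mean per group, 4 residual degrees of freedom). Quasi-likelihood F tests were two-sided and adjusted by Benjamini and Hochberg over 15248 genes. CPM used TMM-scaled library sizes. TPM was not tested in the main analysis. The same code was checked on simulated data. Alternatives were DESeq2 1.42.0, limma 3.58.1, other scaling and filters, a GC trend (spline with 6 degrees of freedom) removed per library, a replicate block, the 4 libraries of a comparison alone, and each library left out.

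The members and lists were chosen with earlier results of these data known. Every member is named. Values in every library are given for members with an unadjusted p under 0.05 in a JIB-04 comparison, for the hydroxylases and for the most abundant paralog of each family. Genes of the further lists are named where they passed, and otherwise for the 2 smallest p-values at each time.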

Additional observations from a re-analysis of the deposited data

How the results depend on the processing

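The number of members passing depended on the model of the spread and on GC content. At 24 h, 48 h, in the mean effect, in the difference of the effects and between the DMSO groups it was 0, 0, 1, 0 and 0. With the GC trend removed it was 6, 6, 11, 1 and 13 (all genes 1595, 1186, 2668, 159 and 2036, against 0, 59, 164, 0 and 65). DESeq2 called 1, 2, 2, 0 and 2 (all genes 91, 148, 311, 12 and 227). In the mean effect RLE scaling and no filter on low counts called 2 members each and limma on log2(TPM + 1) called 0. The fit on the 4 libraries compared called 2 members at 48 h (496 genes). Leaving out each library in turn gave 0 to 0 members at 24 h, 0 to 1 at 48 h, 0 to 2 in the mean effect and 0 to 0 in the others, with 3 to 316 genes in the mean effect. HIF1A at 24 h, at 0.02, was -0.00031 with RLE scaling, -0.000305 in DESeq2, -0.15 with the GC trend removed, with or without the replicate block, -0.023 in limma on log2(TPM + 1), and -0.15 to 0.18 with each library left out (negative in 3 of these fits). SLC2A1 at 24 h ran from -0.11 to 0.35 with each library left out (negative without the first DMSO or the first JIB-04 library of that time). SLC2A3 in DMSO over time was -0.067 in limma on log2(TPM + 1). The causes of these changes were not tested. Over all 34 tested members and all alternatives, 19 changed sign in at least 1 alternative at 24 h, 12 at 48 h and 15 in the mean effect. The largest values that did so were 0.14 (P4HA1), 0.31 (EGLN2, on TPM) and 0.17 (PFKL). In the difference of the effects 19 changed sign, the largest at 0.57 (SLC16A3). Between the DMSO groups 13 did, the largest in size at -0.47 (PFKL). None of these values had passed.

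Replicate numbers did not pair the libraries in the same way in every group. Over 7927 genes the correlation of same-numbered deviations was 0.883 between JIB-04 at 24 h and at 48 h. Between DMSO at 24 h and JIB-04 it was -0.794 at 24 h and -0.755 at 48 h. For DMSO at 48 h with the other groups it lay between 0.082 and 0.089. The cause of this pattern was not tested. The replicate block called 0 members in each of the 5 comparisons, SLC2A3 included (adjusted p = 0.0563 in the mean effect), and with the GC trend also removed it called 6, 5, 12, 1 and 10. A block with the DMSO 24 h numbers crossed, chosen after seeing the data, called 1, 2, 2, 0 and 5 members.

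On scaled counts in place of TPM the paralog shares over all libraries were 48.8% for SLC2A1 (54.6% in TPM), 72.3% for HK2 (62.1%), 48.5% for PFKP (54.1%), 42.3% for PFKFB4 (52.6%), 96.3% for ALDOA (97.3%), 99.8% for ENO1 (99.8%), 53.4% for EGLN2 (67.2%) and 73.4% for BNIP3L (78.7%), so PFKFB4 and SLC2A1 were no longer the larger share. Without GAPDH, ENO1, ALDOA and PKM the summed glycolytic level was 3368 TPM in place of 10258. At these depths ADM, EGLN3 and ANKRD37 were limited by their counts.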
